A study of Mus musculus with 14 samples.

Results

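The serpin family of protease inhibitors was taken as every gene whose symbol starts with Serpin and which has a protein-coding entry, which gave 62 of 54446 genes. By clade, the grouping of serpins by sequence, these were 24 genes of clade A, 27 of clade B, 3 of clade E, 2 each of clades F and I, and 1 each of clades C, D, G and H. A further 6 Serpin symbols had no protein-coding entry and were left out. Of the clade A genes, 23 lie on chromosome 12 and Serpina7 lies on chromosome X; of the clade B genes, 12 lie on chromosome 1 and 15 on chromosome 13.

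Serpins are secreted or intracellular proteins that share one fold. Most of them inhibit serine or cysteine proteases by presenting an exposed reactive centre loop as bait, which the protease cuts and is then trapped with the inhibitor. The liver secretes many of them into the plasma, among them α1-antitrypsin, antithrombin and the C1 inhibitor, and some have lost inhibition and carry hormones instead. Clade A holds the extracellular α1-antitrypsin-like proteins and clade B the mainly intracellular ones, which guard cells against proteases of leukocytes and lysosomes.

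Whole livers of C57BL/6 mice aged 5 weeks were compared in 2 groups by total RNA sequencing. The knockout (KO) group held 8 libraries from animals with a floxed Mettl3 gene and Alb-Cre, a Cre recombinase driven by the albumin promoter, which is active in hepatocytes. The control (WT) group held 6 libraries from animals with floxed Mettl3 and no Cre in the label, so both groups carry the floxed allele. Mettl3 is the methyltransferase that places N6-methyladenosine on RNA. No value here gives Mettl3 by cell type. Since RNA came from whole liver, fewer cells of a type and less RNA per cell cannot be told apart.

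Values are normalised estimated counts per gene, deposited by the authors. Depth was 20.01 ± 8.19 M estimated reads in KO and 26.2 ± 8.14 M in WT (SD, n = 8 and n = 6). Mettl3 measured 99.5 ± 15.7 in KO and 223 ± 23.7 in WT, without overlap, and changed by -1.17 on the log2 scale (SE 0.12; adjusted p = 1.32e-05 in limma). Libraries KO1 to KO4 and WT1 to WT4 held Y-linked RNA (summed value 1749 to 3248, against 186 to 292 in the others). KO5 to KO8, WT5 and WT6 held Xist at 6565 to 11123, against 29.6 to 60.3 in the Y-positive ones. The labels name no sex. The Y-positive libraries were also deeper, at 29.2 ± 3.47 M reads (SD, n = 8), against 13.9 ± 3.07 M (SD, n = 6) in the Xist-high libraries, so class and depth cannot be told apart. KO3, KO6 and KO7 lay apart from the other knockouts on the first principal component (61.5 to 99.7, against -10.7 to 27.6 in the other KO libraries and -70.3 to -25.8 in WT). The 6 hepatocyte markers, with Alb, Ttr, Cps1 and Hnf4a called lower, summed to 383831 to 683325 in KO and 696835 to 824136 in WT.

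The Serpina1 genes are the mouse copies of the α1-antitrypsin gene. Their coding sequences are 96.3% to 98.5% identical pairwise, and 86 alignment positions vary among the 5 genes. The 60 bases with the most variable positions (18, against a median of 4 over all such windows) encode part of the reactive centre loop, the stretch by which the copies differ as inhibitors. They are shown because they are what tells these transcripts apart. Each is the coding strand, on the minus strand of GRCm38 in the GENCODE annotation, and capitals mark the bases that differ among the 5 genes.
Serpina1a, chr12:103853757-103853816: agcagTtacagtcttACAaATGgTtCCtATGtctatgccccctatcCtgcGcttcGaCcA
Serpina1b, chr12:103728324-103728383: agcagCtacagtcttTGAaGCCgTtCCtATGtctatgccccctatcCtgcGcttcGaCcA
Serpina1c, chr12:103895094-103895153: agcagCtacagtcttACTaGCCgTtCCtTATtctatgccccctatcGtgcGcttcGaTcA
Serpina1d, chr12:103763762-103763821: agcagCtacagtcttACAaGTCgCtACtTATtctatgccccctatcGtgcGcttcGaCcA
Serpina1e, chr12:103947100-103947159: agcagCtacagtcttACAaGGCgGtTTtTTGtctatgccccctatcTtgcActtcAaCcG

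Because of this likeness, reads are shared between the copies. Of the 31-base words in the annotated transcripts, 85.8% in Serpina1c, 65.2% in Serpina1a, 64.7% in Serpina1d, 54.2% in Serpina1e and 44.7% in Serpina1b also occur in another gene. How the estimated counts were divided among the copies is therefore uncertain, most of all for Serpina1c and Serpina1a, which have 77.5% of the words of Serpina1c in common. The annotated span of Serpina1b also contains Serpina1d.

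All 5 Serpina1 genes were lower in the knockout livers. Serpina1a ranged from 16932 to 78073 in KO with a median of 55691, and from 87301 to 139544 in WT with a median of 121614. Every KO library lay below every WT library, and the log2 change was -1.42 (SE 0.32, adjusted p = 0.00523 by limma). Serpina1b ranged from 59202 to 136012 in KO (median 106381) and from 150557 to 180675 in WT (median 169214), again with no overlap. Its log2 change was -0.77 (SE 0.20, adjusted p = 0.0134 by limma), the smallest of the 5. Serpina1d had 23998 to 64358 in KO (median 49678) and 76581 to 93137 in WT (median 82207), also with no overlap, a log2 change of -0.96 (SE 0.24, adjusted p = 0.00902 by limma). For Serpina1c the groups overlapped, though not within either class, with 31468 to 164574 in KO (median 89371) and 123030 to 254586 in WT (median 218570). Its log2 change was -1.32 (SE 0.37, adjusted p = 0.0174 by limma). In each of these 4 genes KO3, KO6 and KO7 were the lowest libraries. Without them the log2 changes were -0.90 for Serpina1a, -0.47 for Serpina1b, -0.72 for Serpina1c and -0.55 for Serpina1d, and all 4 were still called. Within the Y-positive libraries alone Serpina1a kept its call, while Serpina1b (-0.64), Serpina1c (-1.13) and Serpina1d (-0.81) did not (limma adjusted p = 0.0758, 0.0664 and 0.0510). With equal library sums Serpina1b was not called (-0.43, adjusted p = 0.0618).

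Serpina1e changed most of the 40 tested serpins in size, and it also differed most between classes of library. It measured 20244, 2571, 729 and 11574 in KO1 to KO4 and 328303, 376271, 451032 and 481171 in WT1 to WT4, all Y-positive. In the Xist-high libraries it measured 1353, 414, 324 and 702 in KO5 to KO8 and 7858 and 12414 in WT5 and WT6. Knockouts were below the controls of their own class throughout, but the Y-positive KO1 exceeded both Xist-high controls and KO4 exceeded WT5. Over all libraries the log2 change was -6.15 (SE 1.16, adjusted p = 0.00161 by limma). It was -6.47 within the Y-positive and -4.04 within the Xist-high libraries (limma adjusted p = 0.00258 and 0.0275), with a difference of 2.42 that did not pass the test (limma interaction, unadjusted p = 0.0731). The WT libraries of the Xist-high class lay 5.36 log2 units below the Y-positive ones.

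**Figure D1:**
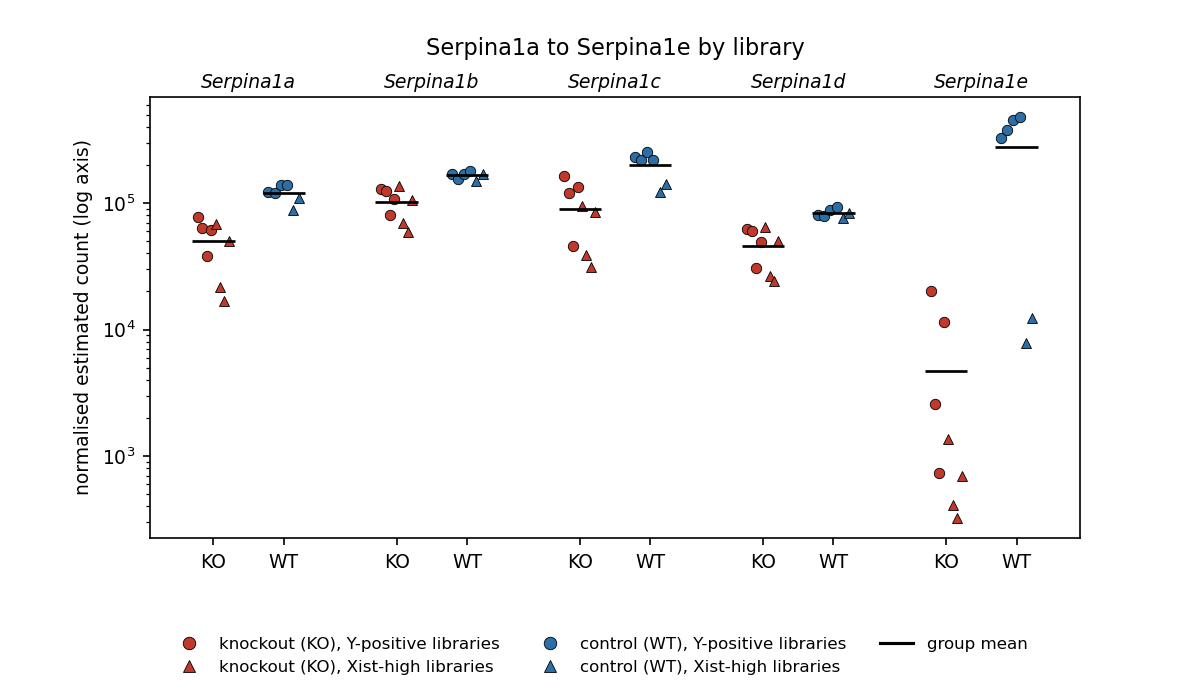
Normalised estimated count of Serpina1a to Serpina1e in each library on a log axis, KO left of WT; circles are Y-positive and triangles Xist-high libraries, bars the group means. The groups do not overlap for Serpina1a, Serpina1b and Serpina1d, and Serpina1e falls into high (328303 to 481171) and low (7858 and 12414) controls.

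Summed over Serpina1a to Serpina1e, values were 290906 ± 116860 in KO and 843481 ± 291580 in WT (SD, n = 8 and n = 6). This sum is not affected by how reads are divided among the 5. Gm8893, a gene outside the 5, holds 43.2% of the transcript words of Serpina1a and 53.0% of those of Serpina1c. The sum can therefore still depend on how reads were divided with Gm8893. That sum was 1.5% ± 0.537 of the library's total value in KO and 3.46% ± 1.05 in WT. Serpina1a to Serpina1d alone summed to 286167 ± 111779 in KO and 567306 ± 82032 in WT. The composition differed too. Serpina1e made up 1.23% ± 1.64 of the Serpina1 sum in KO, with a range of 0.24% to 4.46%. In WT it made up 27.2% ± 19.6, with a range of 1.76% to 43.3% and the Xist-high controls lowest. These means mix the classes unequally, since 4 of 8 KO and 2 of 6 WT libraries are Xist-high. Serpina1b made up 36.9% ± 6.30 in KO and 22.1% ± 8.74 in WT. Per kilobase of transcript, the order of the levels in WT depended on class. In the Y-positive controls Serpina1e was the highest of all serpins (259806 per kb), ahead of Serpina3k (177351) and Serpina1c (169746). In the Xist-high controls it ranked 8 (6436 per kb), where Serpina1c had 96983 and Serpina3k 80714. Serpina1e had 5574 per kb in the Y-positive knockouts (rank 8) and 443 in the Xist-high ones (rank 17). Over all KO libraries its level per kilobase was 3009, below that of each of Serpina1a to Serpina1d, of which Serpina1a was the lowest at 31462.

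**Figure D2:**
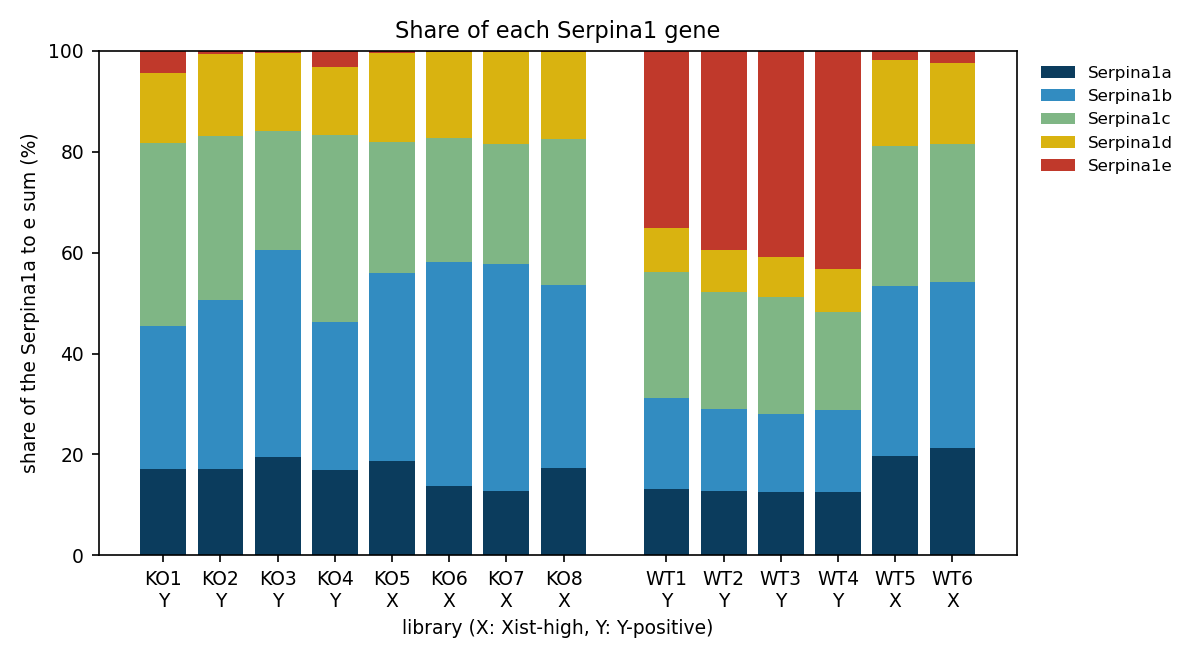
Share of each Serpina1 gene in the sum of Serpina1a to Serpina1e (%), 1 bar per library, KO left of WT; X marks Xist-high and Y Y-positive libraries. Serpina1e takes 1.76% to 43.3% in the controls, where the Xist-high ones are lowest, and 0.24% to 4.46% in the knockouts.

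The start regions of these genes are nearly as alike as their coding parts. Over 248 aligned bases, the windows of Serpina1e and Serpina1b differ at 4 bases (98.4% identity), although Serpina1b had the smallest change of the 5 and Serpina1e the largest. The other pairs are 91.7% to 96.2% identical. The windows of both genes are printed for that contrast, with that of Serpina7, the carrier gene described below that moved the other way. They cover 250 bases before and 50 after the start in RefSeq, GRCm38.p6, minus strand.
Serpina1e, chr12:103956848-103957147: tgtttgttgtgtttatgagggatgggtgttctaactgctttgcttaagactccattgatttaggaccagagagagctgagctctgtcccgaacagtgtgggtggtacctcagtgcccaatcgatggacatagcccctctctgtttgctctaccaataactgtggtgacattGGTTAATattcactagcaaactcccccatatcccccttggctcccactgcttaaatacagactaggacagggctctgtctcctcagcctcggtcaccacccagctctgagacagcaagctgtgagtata
Serpina1b, chr12:103738140-103738439: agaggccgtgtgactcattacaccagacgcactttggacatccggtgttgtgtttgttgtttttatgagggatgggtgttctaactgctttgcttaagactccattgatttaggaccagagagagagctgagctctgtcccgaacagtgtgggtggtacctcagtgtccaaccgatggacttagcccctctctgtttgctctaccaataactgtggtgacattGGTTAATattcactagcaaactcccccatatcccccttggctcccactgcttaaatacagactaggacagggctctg
Serpina7, chrX:139085187-139085486: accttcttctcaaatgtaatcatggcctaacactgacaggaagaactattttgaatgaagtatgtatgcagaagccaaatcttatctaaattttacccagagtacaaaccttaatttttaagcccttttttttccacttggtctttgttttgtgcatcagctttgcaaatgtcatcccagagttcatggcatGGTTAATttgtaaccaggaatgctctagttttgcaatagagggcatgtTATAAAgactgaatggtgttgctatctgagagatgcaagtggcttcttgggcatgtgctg
Capitals mark exact matches on either strand to GGTTAAT, an arm of the site known for the hepatocyte factor HNF1, to TTCNNNGAA, the core known for STAT factors, and to TATAAA. No matches to different motifs overlapped in these windows. GGTTAAT occurred in 1.81% of 32851 RefSeq windows of this length and in those of 7 of the 53 serpin genes that matched, namely Serpina1a to Serpina1e, Serpina7 and Serpinb8. It thus stands in genes of opposite change, and it was picked after these windows had been seen. TTCNNNGAA occurred in 8.3% of all windows and in 8 serpin genes, none of them in Serpina1a to Serpina1e. TATAAA occurred in 13.6% of all windows and in 15 serpin genes. A match is a description of letters in the window.

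Of the 62 serpins, 40 reached a value of 10 in at least 6 libraries and were tested, and 16 of these were called at a limma adjusted p of at most 0.05. There were 7 higher and 9 lower in KO, beside a background of 22.4% called among all 23554 genes tested, 11.5% higher and 11% lower. The median log2 change of the 40 was -0.19, against 0.05 over all genes tested. The higher genes include Serpinb1c, which passed the filter through the KO libraries alone, so that its entry in the counts follows from its being high there. KO and WT did not overlap for 3 serpins that were higher, Serpinb1c among them, and 3 that were lower, beside a background of 4.14% of all genes tested for the higher and 4.02% for the lower direction (8.16% in either). Clade A had 2 higher, 9 lower and 11 uncalled of 22 tested genes, with a median of -0.65. Clade B had 4 higher, again with Serpinb1c, and none lower of 9, with a median of 0.60, and 5 uncalled. That median is the value of Serpinb13, which reached 10 in 7 KO libraries and 1 WT library. Serpinb13 thus also passed the filter through KO, so the median is no separate result. The 7 tested genes of clades C, D, F, G, H and I were not called. The sums of the 62 genes were 530812 ± 214876 in KO and 1250990 ± 398430 in WT (SD, n = 8 and n = 6), or 2.73% ± 0.977 of the library total in KO and 5.15% ± 1.42 in WT. With every library scaled to the same total outside ribosomal RNA, the median of all genes moved up by 0.33, 90.04% of calls over all genes were higher in place of 51.1%, and 12 serpins were called higher and 6 lower.

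**Figure D3:**
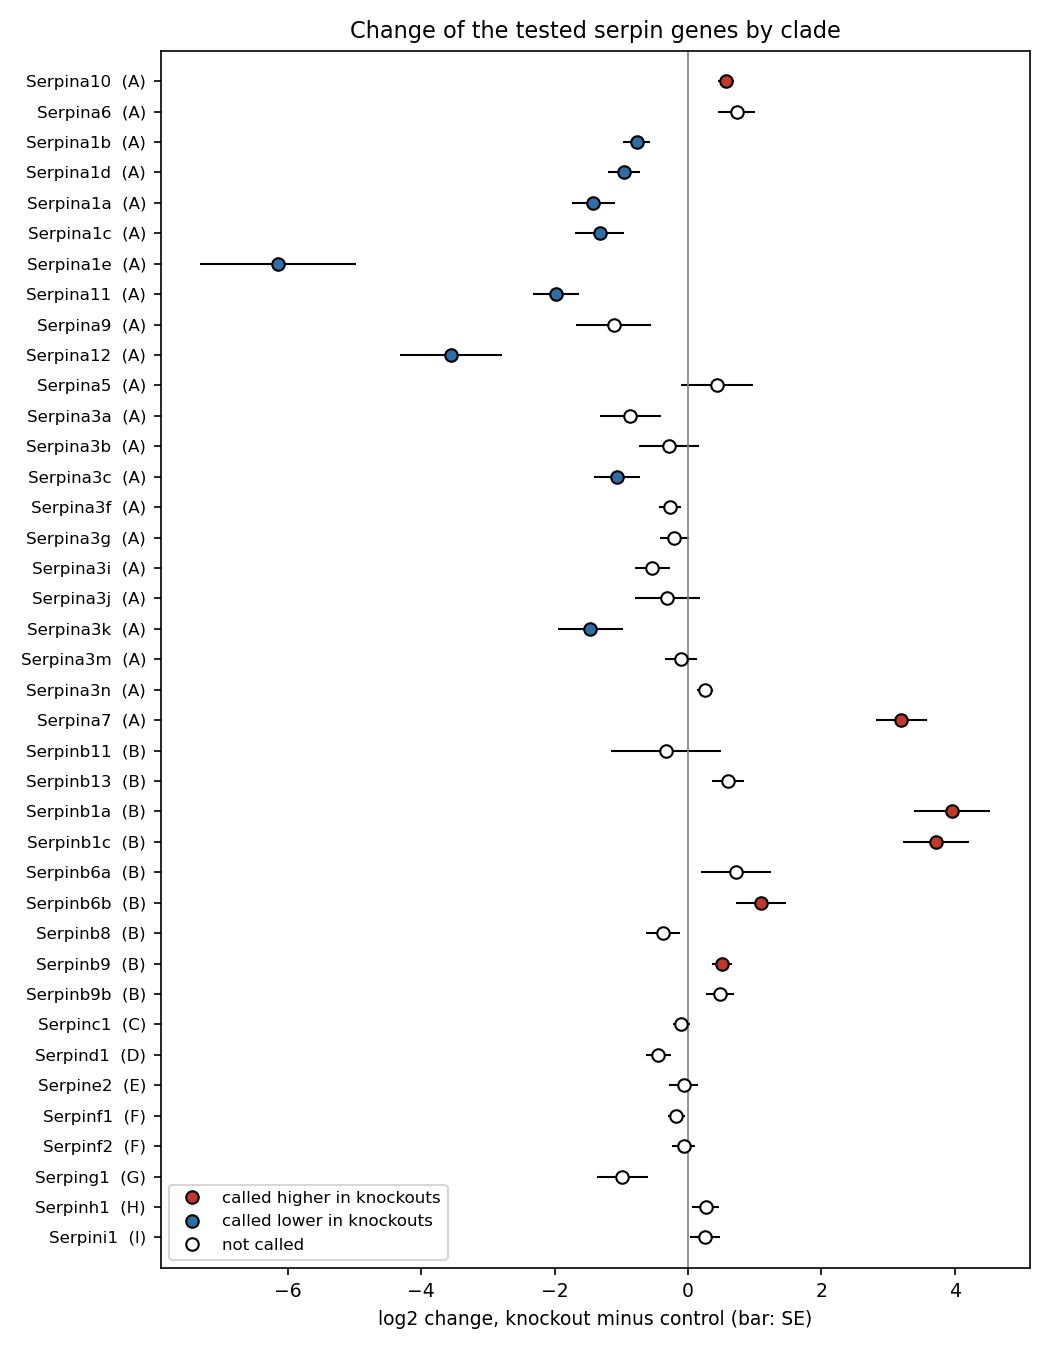
Log2 change, KO minus WT, with its SE (bars) for 39 of the tested serpins, grouped by clade, with the chromosome 12 genes of clade A in their order on the chromosome. Filled points were called (limma adjusted p at most 0.05), 6 of those drawn higher and 9 lower; the run from Serpina1b to Serpina12 holds 7 of the 9 lower genes.

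The lower genes of clade A, except Serpina3c and Serpina3k, lay in a stretch of chromosome 12. The stretch holds Serpina1a to Serpina1e, among which reads are shared. From Serpina1b to Serpina12 (chr12:103728156-104044443, GRCm38) there are 8 serpins in a row on the minus strand, and 7 of them were called lower. Serpina9, the remaining one, measured 19.3 ± 12.5 in KO and 53.9 ± 39.3 in WT (SD, n = 8 and n = 6), a log2 change of -1.11 that was not called (limma adjusted p = 0.171). Within the Y-positive libraries it was called lower, at -1.62 (limma adjusted p = 0.0302), and within the Xist-high libraries its change was 0.32 and not called. Among the other 15 clade A genes of chromosome 12, 13 were tested, 2 were lower and 1 was higher. Neighbouring genes were chosen as a stretch after their values had been seen.

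Serpina12 encodes vaspin, a serpin that is studied in insulin sensitivity. It measured 112, 62.0, 33.2 and 122 in KO1 to KO4 and 875, 923, 1147 and 516 in WT1 to WT4, and 17.1, 8.10, 9.59 and 22.6 in KO5 to KO8 and 95.4 and 65.7 in WT5 and WT6. As with Serpina1e, each knockout lay below the controls of its class, and the Xist-high controls fell among the Y-positive knockouts. The log2 change was -3.55 (SE 0.76, adjusted p = 0.00375 by limma), with -3.49 in the Y-positive and -2.49 in the Xist-high libraries. Serpina11, whose protein is little studied, ranged from 115 to 579.6 in KO (median 312) and from 568.4 to 1493 in WT (median 1216). Only KO1 reached above the lowest control, and each knockout lay below the controls of its class. The log2 change of Serpina11 was -1.98 (SE 0.35, adjusted p = 0.00095 by limma). Of its transcript words, 37.2% are shared with Gm28577, so reads of these genes cannot be told apart there.

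The Serpina3 genes are mouse relatives of α1-antichymotrypsin, an inhibitor of chymotrypsin-like proteases. Serpina3k, the most abundant of them, ranged from 30509 to 255196 in KO (median 109512) and from 163898 to 404496 in WT (median 331878). KO3, KO6 and KO7 had 73548, 30509 and 33265, the lowest values. KO1, KO2 and KO4 (197933 to 255196) lay above the Xist-high controls (163898 and 168161) and below the Y-positive ones (302943 to 404496). Each knockout lay below the controls of its class. The log2 change was -1.46 (SE 0.49, adjusted p = 0.0424 by limma), and -1.23 with class as a covariate (adjusted p = 0.0229). It became -0.70 without KO3, KO6 and KO7 (adjusted p = 0.159). The call was lost when KO3, KO5, KO6, KO7, KO8 or any of WT1 to WT4 was left out. Serpina3c, a minor copy, ranged from 57.0 to 305 in KO (median 174) and from 226 to 456 in WT (median 375). Each knockout lay below the controls of its class. The log2 change of Serpina3c was -1.06 (SE 0.34, adjusted p = 0.0343 by limma), and -0.91 with class as a covariate (adjusted p = 0.0182). It was -0.53 without KO3, KO6 and KO7 (adjusted p = 0.117), and the call was lost when KO3, KO7 or any of WT1 to WT4 was left out. Serpina3n, known as an acute phase gene of mouse liver, was not called, with 7407 ± 1154 in KO and 6196 ± 946 in WT (SD, n = 8 and n = 6; log2 change 0.26, limma adjusted p = 0.152). Serpina3m measured 5309 in KO and 5519 in WT on average, and it has 35% of its transcript words in another gene and an annotated start shared with Serpina3k. The 6 other tested copies, Serpina3a, Serpina3b, Serpina3f, Serpina3g, Serpina3i and Serpina3j, had group means between 11 and 102 in both groups, log2 changes of -0.86 to -0.20 and no call. All 10 Serpina3 genes summed to 145008 ± 92314 in KO and 310922 ± 107861 in WT.

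Serpina7 was the serpin with the smallest p. It encodes thyroxine-binding globulin, a plasma carrier of thyroid hormone. Its values were 2265, 2828, 6286, 4811, 8549, 4412, 6568 and 6863 in KO1 to KO8 and 677, 463, 161, 642, 1214 and 576 in WT1 to WT6. Every KO library lay above every WT library. The log2 change was 3.20 (SE 0.38, adjusted p = 5.03e-05 by limma), or 9.18-fold, higher in 8 of 8 KO libraries than the WT mean. It was also called within each class, at 3.13 among Y-positive and 2.94 among Xist-high libraries. The gene is on chromosome X (chrX:139079257-139085236, minus strand), and it shares no 31-base word with another gene.

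The other hormone carrier, Serpina6 (corticosteroid-binding globulin), measured 4660 ± 1669 in KO and 2847 ± 1205 in WT (SD, n = 8 and n = 6). Its log2 change of 0.73 missed the threshold (limma adjusted p = 0.0718), and Xist-high controls, at 4049 and 4580, lay in the middle of the KO range of 2762 to 6878. It was called with class as a covariate, at 0.59 (limma adjusted p = 0.0403), and with equal library sums, at 1.07 (adjusted p = 0.0154). Serpina10 is the protein Z-dependent inhibitor of coagulation factors X and XI. It ranged from 6916 to 10334 in KO (median 9403) and from 5314 to 7843 in WT (median 5890), with only KO2 below the highest control. Its log2 change was 0.57 (SE 0.12, adjusted p = 0.00274 by limma). Proz, the gene of protein Z itself, was called lower, at 6172 ± 1649.9 in KO and 10066 ± 1023 in WT (log2 change -0.75, limma adjusted p = 0.00578). Serpina5, the protein C inhibitor, was near the detection filter in both groups (10.7 ± 5.19 in KO and 6.33 ± 2.96 in WT) and was not called.

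**Figure D4:**
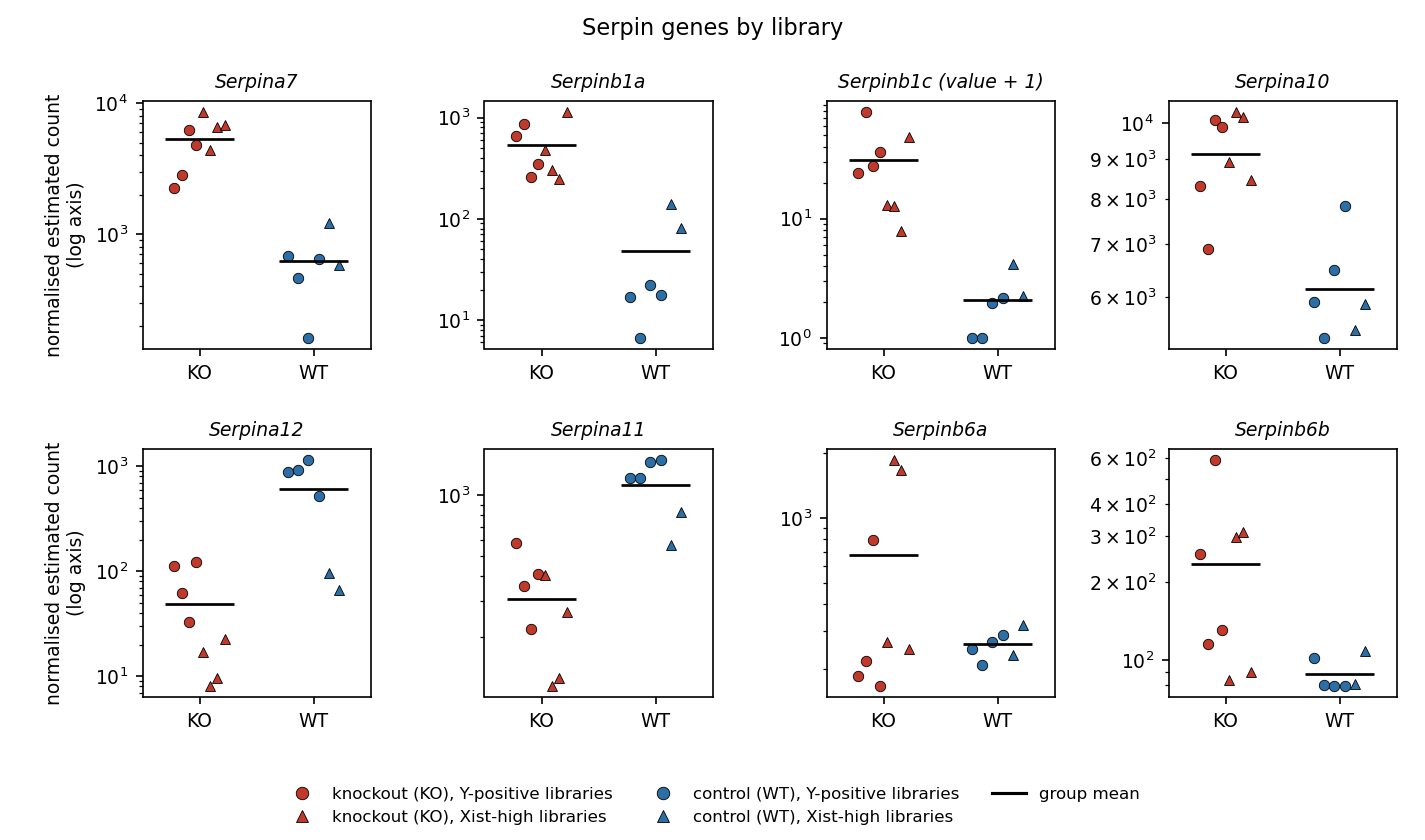
Normalised estimated count of 8 serpins in each library on log axes (Serpinb1c as value + 1), KO left of WT; circles are Y-positive and triangles Xist-high libraries, bars the group means. KO lies above WT without overlap for Serpina7, Serpinb1a and Serpinb1c, and Serpinb6a has 3 high knockouts (791 to 1858) beside 5 at 168 to 268.

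In clade B the largest changes were in the Serpinb1 genes on chromosome 13. Serpinb1a encodes the inhibitor of the neutrophil proteases elastase, cathepsin G and proteinase 3. It measured 664, 862, 259, 349, 482, 306, 249 and 1135 in KO1 to KO8 and 16.96, 6.63, 22.3, 17.7, 141 and 81.9 in WT1 to WT6. No KO library reached down to a control, and both Xist-high controls were above the other controls. The log2 change was 3.96 (SE 0.57, adjusted p = 0.00021 by limma). It was 4.93 in the Y-positive and 2.06 in the Xist-high libraries; the difference of -2.87 had an unadjusted p of 0.0026 and did not pass the limma interaction test over all genes (adjusted p = 0.660). Serpinb1c, a close copy, had 6.87 to 77.3 in KO (median 25.0) and 0 to 3.20 in WT (median 1.07). It passed the filter through the KO libraries alone, its fitted log2 change of 3.71 depends on the pseudocount, and it shares 11.8% of its transcript words with other genes, against 10.2% for Serpinb1a. Serpinb1b did not pass the filter, with at most 7.62 in KO and 7.59 in WT.

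Beside Serpinb1a stood the neutrophil markers. Of 12 listed, 4 passed the filter and none was called, and their sum was 102 to 347 in KO and 105 to 177 in WT. Of the 4, S100a9 averaged 50.1 in KO and 30.9 in WT, Csf3r 70.0 in KO and 48.7 in WT, and S100a8 14.2 in KO and 8.30 in WT. The fourth, Prtn3, averaged 9.96 in KO and 15.1 in WT. Ly6g, Mpo and Elane, below the filter, reached at most 8.66, 15.4 and 15.4 in KO and 3.59, 6.59 and 9.08 in WT. KO2 and KO8 had the highest Serpinb1a values, and KO3 the highest neutrophil sum. Of 6 markers of cholangiocytes, Sox9, Epcam and Spp1 were called higher in KO. Krt7, Krt19 and Cftr were not called, at log2 changes of 0.69, 0.26 and 0.06, and Krt19 averaged 108 in KO and 125 in WT. The 6 summed to 1073 to 3527 in KO and 697 to 1247 in WT. Spp1 was the largest part, at 1389 in KO and 553 in WT on average. That sum was highest in KO3, KO6 and KO7, where Serpinb1a was among the lowest knockout values. The part of these cells in the result was not tested.

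Serpinb6a and Serpinb6b encode intracellular inhibitors of trypsin-like proteases and cathepsin G. Serpinb6b ranged from 83.5 to 589.7 in KO (median 193) and from 79.6 to 108 in WT (median 80.5), a log2 change of 1.10 (SE 0.38, adjusted p = 0.0470 by limma). KO3, KO6, KO7 and KO1 had 589.7, 298, 312 and 256, and the other KO libraries 83.5 to 130.1. Without KO3, KO6 and KO7 the log2 change was 0.49 (adjusted p = 0.188), and the call was lost on leaving out KO1, KO3, KO6, KO7 or any control. Serpinb6a showed the same 3 libraries more plainly, with 791, 1858 and 1677 in KO3, KO6 and KO7, 168 to 268 in the other KO libraries and 208 to 322 in WT. It was not called (log2 change 0.73, limma adjusted p = 0.352), and 29.0% of its transcript words are in other genes. In those 3 libraries Cdkn1a, a p53 target, also stood at 481 to 549.6, against 49.9 to 162 in the other KO libraries and 18.3 to 41.1 in WT, and the squamous marker Sprr1a at 283 to 457, against at most 18.8 in the other KO libraries and 2.18 in WT. Krt5 and Krt14, defining keratinocyte genes, stayed at or below 19.2 in KO and 8.41 in WT. Their part in the result was not tested.

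Serpinb9, the inhibitor of granzyme B, ranged from 204 to 400.5 in KO (median 309) and from 180.4 to 239.6 in WT (median 209). The log2 change was 0.51 (SE 0.15, adjusted p = 0.0227 by limma); it was 0.32 and not called without KO3, KO6 and KO7 (adjusted p = 0.121), and the call was also lost without WT2 or without WT6. Markers of T and NK lymphocytes, 7 of 10 tested and none called, summed to 131 to 182 in KO and 145 to 223 in WT. The uncalled clade B genes were Serpinb9b (26.2 in KO and 18.0 in WT on average), Serpinb13 (13.2 in KO and 8.55 in WT), Serpinb8 (86.3 in KO and 117 in WT) and Serpinb11 (25.8 in KO and 49.5 in WT), beside Serpinb6a. The other 18 clade B genes stayed below the filter. Among these, Serpinb9f was listed at 0 in all 6 controls and between 0 and 9.38 in KO, with 87.3% of its words shared with other genes.

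None of the plasma inhibitors of clades C, D, F and G was called. Serpinc1, antithrombin, measured 38219 ± 5654 in KO and 40750.4 ± 4112 in WT (SD, n = 8 and n = 6; log2 change -0.10, limma adjusted p = 0.622). Serpind1, heparin cofactor II, measured 6620 ± 1955 in KO and 8649 ± 706 in WT and was not called (log2 change -0.44, limma adjusted p = 0.0934). Serping1, the C1 inhibitor, measured 8067 ± 4374 in KO and 13473 ± 2097 in WT. KO3, KO6 and KO7 had 5192, 2477 and 2416, while the other KO libraries had 7478 to 13540.1, and the log2 change of -0.98 was not called (limma adjusted p = 0.0733). Serpinf2, α2-antiplasmin, averaged 11870 in KO and 12096 in WT, and Serpinf1, pigment epithelium-derived factor, 7924 in KO and 8814 in WT. Serpinh1, the collagen chaperone HSP47, averaged 522 in KO and 422 in WT, Serpine2 (protease nexin 1) 48.8 in KO and 51.1 in WT, and Serpini1 (neuroserpin) 20.2 in KO and 16.5 in WT, none of them called. The 9 stellate cell and fibroblast markers were not called either.

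Serpini2, a pancreatic serpin, was below the filter with 40.0 in KO4 and at most 6.85 in the other KO libraries and 5.14 in WT. Pancreatic acinar markers summed to 8095 in KO4, against 148 to 241 in the other KO libraries and 286 to 766 in WT. The part of pancreatic RNA was not tested.

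Class differences were tested over all genes. No serpin was called in the interaction of group and class, where 0.0552% of all genes (13) were; 4 serpins had an unadjusted p under 0.05 in limma, Serpinb1a, Serpinb1c, Serpina9 and Serpine2, beside 5.92% of all genes. Within the Y-positive libraries 4 serpins were called higher and 5 lower, and within the smaller Xist-high set 1 was higher (Serpina7) and 1 lower (Serpina1e). Of the 23554 genes tested, 1740 were called higher in the Y-positive fit, and 172 higher and 47 lower in the Xist-high fit. The number of all genes lower in the Y-positive fit is not given here, so the 5 lower serpins have no share beside them. The 16 called serpins had the same direction in both classes.

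**Figure D5:**
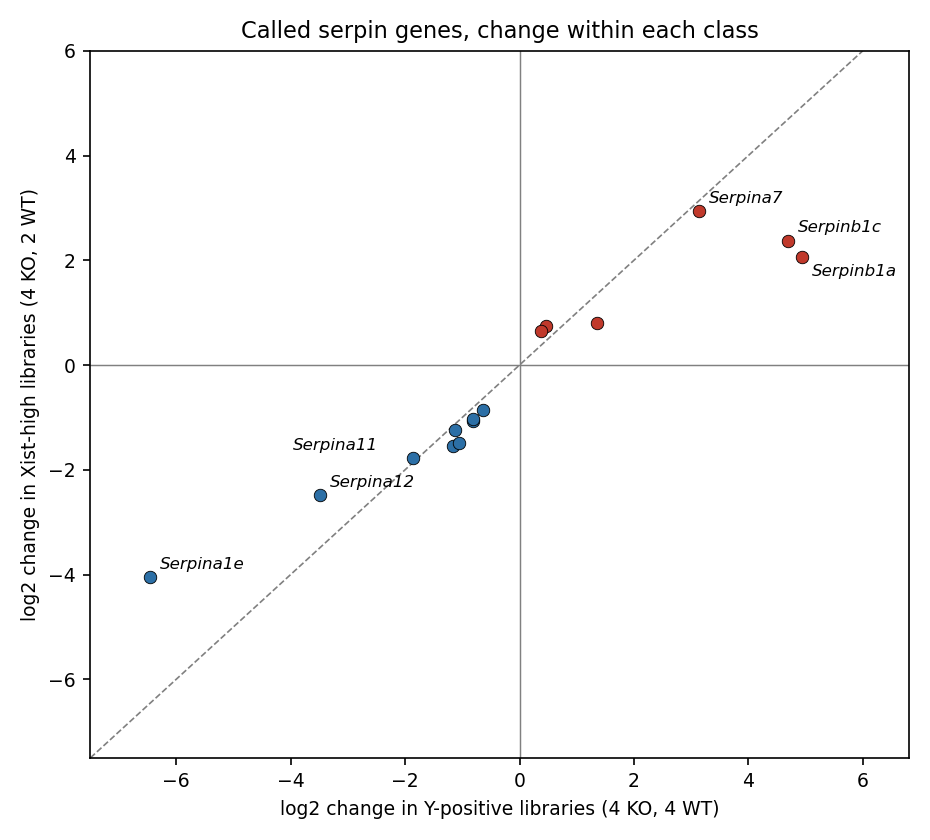
Log2 change, KO minus WT, of 15 called serpins within the Y-positive (x axis) and the Xist-high (y axis) libraries; red points are called higher and blue lower in KO, and the dashed line marks equal change. The genes were chosen by their call over both classes together, which favours equal signs. All points lie in the quadrants of equal sign, with Serpina1e at -6.47 and -4.04 and Serpinb1a at 4.93 and 2.06.

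The proteases and other partners of these inhibitors were followed in lists chosen by function; over all genes tested 22.4% were called, 11.5% higher and 11% lower, beside which the counts of these lists are to be read. Of 11 coagulation, kinin and fibrinolysis protease genes, 6 were lower and 1 higher, with a median log2 change of -0.43. F7, the factor VII gene, measured 1376 ± 490.0 in KO and 2692 ± 276 in WT (log2 change -1.05, limma adjusted p = 0.00236), F9 had a log2 change of -0.66 (adjusted p = 0.0161), and Plat, tissue plasminogen activator, had 1.20 (adjusted p = 0.0393). Of 8 complement proteases, 3 were lower and 1 was higher, with Masp2 at -0.65, Cfb at -0.56 and C2 at 0.44. Of 7 leukocyte proteases, among them targets of Serpinb1a and Serpinb9, 4 were tested and none was called. The tested genes were Prtn3, Gzma, Gzmb and Mcpt4, while Elane and Ctsg, targets of Serpinb1a, were below the filter. The 4 had a median log2 change of -0.45, with Mcpt4 at -1.43 (limma adjusted p = 0.0804). Of 8 furin-like and lysosomal proteases, 4 were higher and none lower; Ctsl, cathepsin L, changed by 0.76, Ctsb, cathepsin B, by 0.60 and Pcsk5 by 0.39 on the log2 scale. Among 9 cofactors and receptors, 1 was higher and 2 were lower, namely Sdc1 at 0.73, a syndecan, Vtn at -0.86, vitronectin, and Proz.

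Of 10 genes for quality control of secreted proteins in the endoplasmic reticulum, where misfolded α1-antitrypsin is retained and cleared, 2 were higher and 1 was lower, a share near that of all genes. Hspa5, the chaperone BiP, measured 7903 ± 2969 in KO and 3599 ± 437 in WT (log2 change 1.07, limma adjusted p = 0.000848), Edem2 had a log2 change of 0.69 and Edem1 of -0.66. Of 22 regulators known for serpin genes, 9 were lower and 1 was higher, with a median of -0.29, beside 11% lower and 11.5% higher among all genes tested. The 3 with the largest change were Nr1i3, the nuclear receptor CAR (1729 ± 664 in KO and 4396 ± 1195 in WT, log2 change -1.42, limma adjusted p = 0.00157), Il6ra, the interleukin 6 receptor (log2 change -0.92), and Ppara (log2 change -0.91). Whether any of these genes bears on a serpin's change was not tested.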

How the data were processed

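Total RNA of 14 livers was sequenced from stranded libraries, per the labels' protocols. The submitters' processing notes name kallisto, sleuth and mm10, without versions. The deposited signal values are normalised estimated counts per gene, read as such from the values: 27.8% to 29.7% of values under 200 reads per library are whole multiples of 1 read within 0.02. The deposited natural-log change equals WT minus KO of ln(value + 0.5). The p-value and q-value columns are the authors' Wald test, over 27865 genes, and were used as an alternative.

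From 75859 lines, 1 line per gene was kept. limma 3.58.1 in R 4.3.3 (trended variance) tested log2(value + 1), KO minus WT with no covariate, for the 23554 genes that reached 10 in 6 or more libraries. Benjamini-Hochberg adjusted p of at most 0.05 was called, and the scripts were tested on simulated data. Low values and shallow libraries are least precise, and fold changes of low genes are understated by the pseudocount. P values set the difference between groups against the spread between libraries. Replicate numbers correlated between groups at 0.0707 to 0.228 and were not treated as pairs.

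Members and the 16 lists were chosen with earlier results of these data known. All members enter the counts, 1 tested member is not reported here, other called members with a mean of at least 100 have values per library or ranges, and the 3 called partners with the largest change in each list are named. Classes were set by Y-linked genes and an Xist value of 1000. Shared 31-base words were counted over GENCODE transcripts, and promoter windows came from RefSeq GRCm38.p6 (53 of 62 members).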

Additional observations from a re-analysis of the deposited data

Results flagged for a closer look

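Serpina5 was listed at 0 in KO8, the lowest of the knockouts, whose median was 11.6. On the log2(value + 1) scale the gap to the next library was 0.717 of the range, above the critical value of 0.526 for 8 libraries. Without KO8 its log2 change was 0.90 and was called. Serpina5 reached the filter value in 6 KO libraries and 1 WT library, so it passed the filter mainly through KO. That call is therefore no separate result. For such gaps 80 sets of values were examined (40 genes in 2 groups), and chance flags about 1 in 20.

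Serpina3j had opposite directions in the classes, at -0.52 in the Y-positive and 0.57 in the Xist-high libraries, with -0.31 over all. The limma interaction test gave a difference of 1.09 (SE 0.68, unadjusted p = 0.134, adjusted p = 0.835), which did not pass. Its group means were 11 in KO and 16.1 in WT.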

How the results depend on the processing

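The 16 called serpins, chosen on these same libraries, kept their direction in every setting. In all 14 fits that left out 1 library, 11 of them kept their call. Among the other 5 are Serpina3c, Serpina3k, Serpinb6b and Serpinb9. Leaving out 1 library gave 5 to 8 serpins higher and 7 to 11 lower, all genes called higher at 2189 to 2863 and all genes called lower at 2039 to 2792, and a Mettl3 change of -1.21 to -1.12. Of the 24 uncalled serpins, 12 reversed in some setting. With equal sums, 12 serpins were higher, and 7833 genes were higher and 866 lower; reversed were Serpina3b 0.035, Serpina3f 0.065, Serpina3g 0.13, Serpina3m 0.23, Serpinc1 0.24, Serpine2 0.27, Serpinf1 0.17 and Serpinf2 0.27. In Y-positive libraries 4 serpins were higher and 5 lower, with 1740 genes higher; Serpina3b 0.23, Serpina3m 0.20 and Serpinc1 0.0082 reversed. In the Xist-high libraries, with fewer samples, 1 serpin was higher and 1 lower, with 172 genes higher and 47 lower, and Mettl3 was -1.03 (limma adjusted p = 0.0717); Serpina3j 0.57, Serpina9 0.32, Serpinb11 1.22 and Serpine2 0.50 reversed. Without KO3, KO6 and KO7, Serpina3b 0.23, Serpina3m 0.29, Serpinb6a -0.27, Serpinc1 0.055, Serpinf1 0.0020 and Serpinf2 0.18 reversed. With log2 depth as a covariate, Serpina3b 0.26, Serpina3j 0.15, Serpinb11 0.66, Serpine2 0.025 and Serpinf2 0.018 reversed, and with class as a covariate Serpinb11 0.13. Leaving out 1 library ranged over -0.19 to 0.023 for Serpina3m, -0.15 to 0.027 for Serpinf2, -0.92 to 0.20 for Serpinb11 and -0.18 to 0.028 for Serpine2. The interaction with class had 25 genes without a filter and 9 to 13 with 1 library left out, and no serpin. A replicate block over libraries 1 to 6, although the numbers are not shown to pair animals, gave 6 serpins higher and 8 lower. Without the block, a comparison chosen after seeing the data, 6 were higher and 7 lower. The numbers of all genes called in these fits are not given here, so these counts have no share beside them. Mettl3 was -1.14 and Serpina3b 0.035 in both fits. The authors' deposited table gave 5 serpins higher and 8 lower at q of at most 0.05 (17.1% of all genes), with Serpina1b (q = 0.0563) and Serpinb6b (q = 0.0525) just outside; it holds no q for Serpinb1c. The cause of these shifts was not tested. Depth limits the serpins near a value of 10 most.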

Other observations

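Among the Serpin symbols with no protein-coding entry, Serpina4-ps1, an unprocessed pseudogene, measured 94.0, 26.0, 6.65 and 244 in KO1 to KO4 and 1933, 5558, 2787 and 2933 in WT1 to WT4. In the Xist-high libraries it measured 8.56, 6.95, 0 and 1.62 in KO5 to KO8 and 69.3 and 155 in WT5 and WT6. The knockouts lay below the controls of their own class, and Xist-high controls below Y-positive ones. Serpina3l-ps averaged 25.4 ± 19.5 in KO and 60.6 ± 27.5 in WT (SD, n = 8 and n = 6), and Serpina3e-ps 37.5 ± 25.0 in KO and 70.5 ± 16.6 in WT. No test of these genes is given here.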
